A study of Homo sapiens with 4 samples.

Results

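The 10 genes described here encode the carnitine shuttle and the enzymes of mitochondrial beta-oxidation: CPT1A, SLC25A20, CPT2, ACADVL, ACADM, ACADS, HADHA, HADHB, HADH and ACAA2. They were chosen by gene symbol, and every line of the authors' deposited table assigned to any of them was taken. These were 25 lines and 24 distinct regions of 91107 in the authors' deposited table, because HADHA and HADHB share 1 region. The study profiled H3K27ac, an acetylated form of histone H3 found at active promoters and enhancers, by immunoprecipitation of chromatin followed by sequencing. The cells were of the human melanoma line A375. The labels give 4 libraries, 2 from cells kept 48 hours with the vehicle isopropanol and 2 from cells kept 48 hours with 1 mM octanoate, a medium-chain fatty acid. All 4 used the same antibody to H3K27ac and the same line in serum-containing medium, and no source used here says whether the libraries of a group came from separate cultures.

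Long-chain fatty acids reach the mitochondrial matrix through the carnitine shuttle. CPT1A joins the acyl group to carnitine at the outer membrane, the carrier SLC25A20 moves the acylcarnitine across the inner membrane, and CPT2 returns the acyl group to coenzyme A. Medium-chain acids such as octanoate can enter without this shuttle. Each round of beta-oxidation then runs through an acyl-CoA dehydrogenase, a hydratase, a hydroxyacyl-CoA dehydrogenase and a thiolase, with different enzymes for different chain lengths. Several of these genes are known targets of the PPARs, nuclear receptors that fatty acids activate.

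Each region in the authors' deposited table has a mean level over the libraries, a log2 fold change between the groups, its standard error and p-values, and no value per library. Depth per library and spread between replicates are therefore unknown, and each error below is the standard error of the authors' model or the 95% interval computed from it. The header does not name the numerator of the fold change, so values are called positive or negative and never a gain or a loss under octanoate. An adjusted p was given for 36436 regions of the authors' deposited table, here called tested, and the 54671 others lay at mean levels of at most 18.4. The median log2 fold change of all tested regions of the authors' deposited table was 0.32, so a member with a value near 0.32 lay at the middle of the table. In chromatin from a cell population, more signal per cell and more cells with signal cannot be told apart.

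The melanoma label was set against marker genes. Of 7 melanocyte lineage genes, 4 had a region at distance 0 in the authors' deposited table: SOX10, PMEL, MITF and S100B, at mean levels of 774, 269, 98.4 and 55.2. MLANA, TYR and DCT had none there. Of 8 markers of blood, liver, epithelium and endothelium, EPCAM (50.5) and APOA1 (9.80) had such a region in the authors' deposited table.

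A distance of 0 in the authors' deposited table was taken as overlap with a gene's start, and for the members this could be checked. For 8 members, lines with another distance allow the start that the authors used to be worked out from the region's edge. In 7 of them it lay within 500 bases of the start in RefSeq (GRCh38.p14), with differences of 0 bases for ACADVL and ACADM, 44 for HADHB, 91 for ACADS, 95 for HADHA, 395 for CPT2 and 421 for ACAA2. CPT1A was the exception, with a difference of 45008 bases. SLC25A20 and HADH had a region at distance 0 only. All 8 distinct regions at distance 0 also overlapped the RefSeq start of the member.

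DNA from the starts of 5 members is printed to show the sequence under the shared HADHA and HADHB region, the start regions with the highest and lowest fold change (SLC25A20 and HADH) and ACADM, whose enzyme acts on medium chains. Sequences are from RefSeq, GRCh38.p14, 5′ to 3′, and capitals mark GC boxes (GGGCGG on either strand) and, in SLC25A20, 1 ETS site (CCGGAAG). The first is the plus strand between the HADHA and HADHB starts that the deposited distances imply (chr2:26244728-26244894). The others are the 250 bases before the RefSeq start on the gene's own strand, for SLC25A20 (chr3:48898883-48899132, minus), HADH (chr4:107989639-107989888, plus) and ACADM (chr1:75724459-75724708, plus).
HADHA-HADHB: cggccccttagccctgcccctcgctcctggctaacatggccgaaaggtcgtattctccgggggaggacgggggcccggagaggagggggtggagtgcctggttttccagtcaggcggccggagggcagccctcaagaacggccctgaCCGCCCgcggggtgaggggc
SLC25A20: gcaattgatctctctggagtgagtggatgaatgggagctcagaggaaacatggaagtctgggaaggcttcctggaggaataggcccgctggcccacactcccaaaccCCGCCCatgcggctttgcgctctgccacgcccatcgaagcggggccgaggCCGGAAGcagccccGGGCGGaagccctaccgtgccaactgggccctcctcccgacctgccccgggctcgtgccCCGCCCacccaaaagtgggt
HADH: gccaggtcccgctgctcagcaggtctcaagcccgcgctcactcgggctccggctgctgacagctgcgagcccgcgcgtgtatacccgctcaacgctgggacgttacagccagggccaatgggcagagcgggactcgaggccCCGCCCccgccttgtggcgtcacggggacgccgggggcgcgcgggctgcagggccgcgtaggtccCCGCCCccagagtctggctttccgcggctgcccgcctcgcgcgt
ACADM: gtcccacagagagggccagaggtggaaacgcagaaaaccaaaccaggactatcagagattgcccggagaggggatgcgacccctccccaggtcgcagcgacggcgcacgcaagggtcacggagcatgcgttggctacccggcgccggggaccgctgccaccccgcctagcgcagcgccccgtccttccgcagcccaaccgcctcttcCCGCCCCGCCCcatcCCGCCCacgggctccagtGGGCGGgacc
The stretches hold 1 GC box between HADHA and HADHB, 3 in SLC25A20, 2 in HADH and 4 in ACADM, of which 2 overlap by 1 base. Their GC content ran from 66.0% in SLC25A20 to 74.4% in HADH.

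The RefSeq promoter windows used here, of 300 bases each, number 12 for the 10 members, with a second start for ACADVL and HADH only. A GC box lay in 8 of the 12, and in 45.0% of all 35116 windows of the same length. The ETS site lay in the windows of CPT2 and SLC25A20, and in 10.3% of all windows. Neither the PPAR response element AGGTCANAGGTCA nor its single repeat AGGTCA was found on either strand in any of the 12, where the single repeat lay in 13.8% and the full element in 0.0228% of all windows. The longer site of estrogen-related receptors, TCAAGGTCA, which contains that repeat, was likewise absent from the 12 and lay in 0.353% of all. The CCAAT box (CCAAT) was found in 1, at HADH (34.6% of all), and the TATA box (TATAAA) in 1, at the upstream ACADVL start (11.5%). These matches describe the letters of these windows only. By GC content the windows ran from 40.7% at the inner HADH start to 74.3% at the outer one, beside a median of 58.7% over all windows.

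Across the 10 genes, most regions had positive fold changes, as most of the table did, and 1 region passed the test. By the authors' deposited table, 19 of the 24 member regions were positive, or 79.2%, beside 73.7% of all regions, and the median was 0.45 beside 0.28 for all regions. Of the 13 tested member regions, 12 were positive, with a median log2 fold change of 0.48, and 11 lay above the 0.32 of all tested regions in the authors' deposited table. At an adjusted p under 0.05, 1 of the 13 was called, where the share called among all tested regions of the authors' deposited table was 1.67%. Before adjustment, 5 of the 13 had a p-value under 0.05 with a positive fold change, where 17.9% of all tested regions of the authors' deposited table did. With a single call among 13, the count of calls says little about the group. The 11 regions without an adjusted p ran from -0.50 to 1.14 on the log2 scale in the authors' deposited table, with standard errors from 0.40 to 1.00, and the smallest of their unadjusted p was 0.111.

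**Figure D1:**
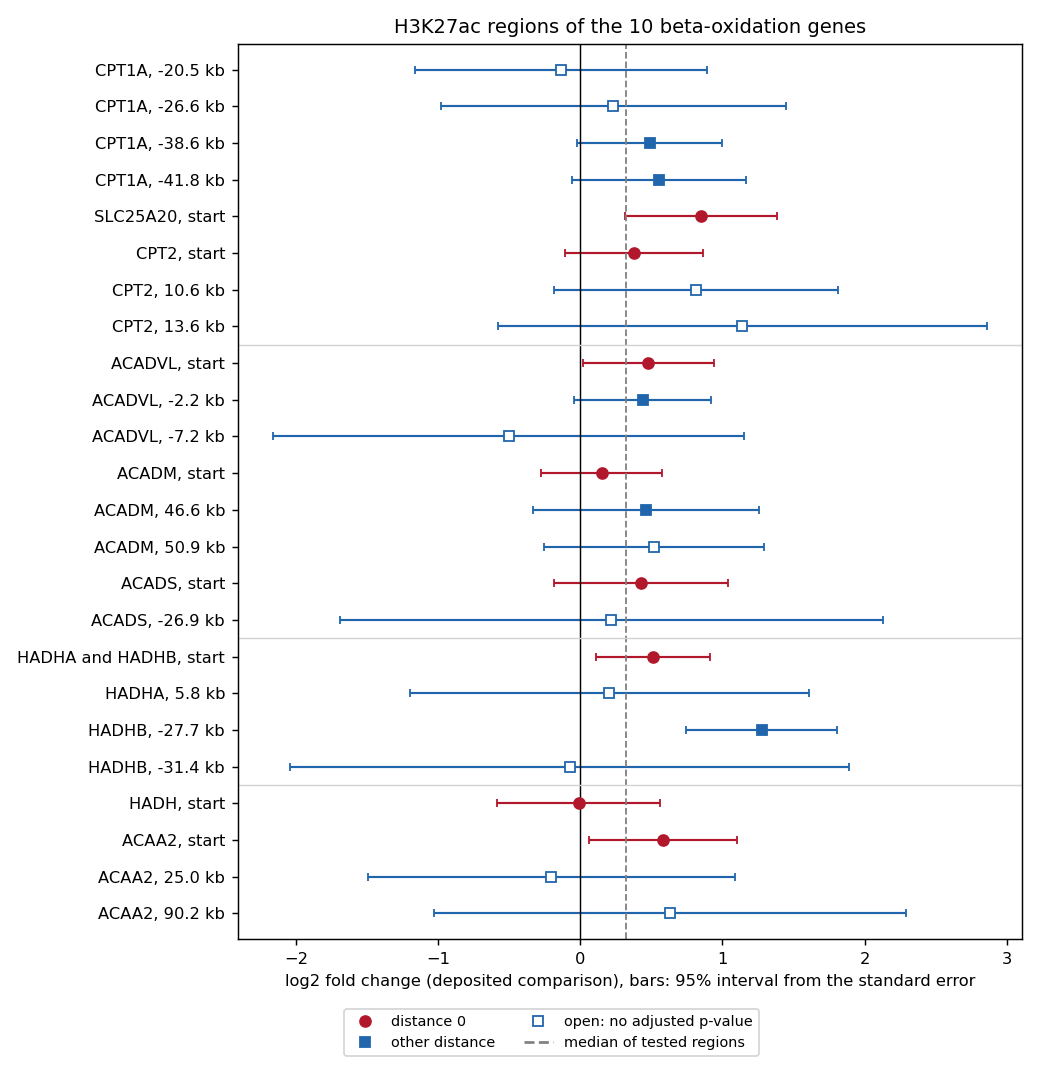
Log2 fold change (horizontal axis, from the authors' deposited table) of the 24 distinct member regions (rows, in the order of the pathway, with the deposited distance to the gene's start), with 95% intervals from the authors' standard error. Circles are regions at distance 0, squares the others, open symbols have no adjusted p, and the dashed line is the median of 0.32; the HADHB region inside the gene, at 1.27, is the row whose interval lies farthest above it.

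The region that passed lay inside HADHB, the beta subunit of the mitochondrial trifunctional protein, which carries the thiolase activity for long chains. This region (chromosome 2, 26272567 to 26275359, as given in the authors' deposited table) was 2792 bases wide and lay 27673 bases beyond the start that the authors used, within the gene in RefSeq (exons and introns were not analysed here). The authors' deposited table gave it a log2 fold change of 1.27 ± 0.27 (standard error), a ratio of 2.42 with a 95% interval of 1.68 to 3.49. The authors' deposited table put its DESeq2 adjusted p at 0.00208, from an unadjusted 2.34e-06. Its mean level of 52.6, or 18.8 per kb, was ordinary for a tested region away from starts (percentile 60.1 per kb), while its fold change stood at percentile 99.6 of that class in the authors' deposited table. Adjustment over all 91107 regions kept the call, with an adjusted p of 0.00521 beside 0.274% of them called. When the table's median was subtracted first, the log2 fold change was 0.95, and the adjusted p computed from the authors' deposited table became 0.145, which ends the call (0.124% of tested regions passed then). A small region 31387 bases from the start, close to it, had -0.07 ± 1.00 (standard error) at a mean level of 2.86 in the authors' deposited table, too low to show a difference.

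The HADHB start and the HADHA start lie under 1 broad region. HADHA is the alpha subunit, with the hydratase and long-chain hydroxyacyl-CoA dehydrogenase activities, and the genes are transcribed away from each other. The shared region (chromosome 2, 26240123 to 26248228) was the widest of the members, with 8105 bases, and had the highest mean level, 246, in the authors' deposited table. That level stood at percentile 93.5 of tested regions at starts, and per kb it was 30.4, at percentile 71.0 in the authors' deposited table. Its log2 fold change was 0.51 ± 0.21 (standard error) in the authors' deposited table, with p = 0.0126 before and 0.169 after adjustment, so it did not pass. The region inside HADHB exceeded the shared start region by 0.76 on the log2 scale (95% interval 0.098 to 1.43), with the errors of the authors' deposited table taken as independent. Since the HADHB region was the only call, this difference is a description. The remaining HADHA region lay inside the gene, 5830 bases from the start that the authors used. It had a log2 fold change of 0.20 ± 0.72 (standard error) at a mean level of 5.46 in the authors' deposited table.

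**Figure D2:**
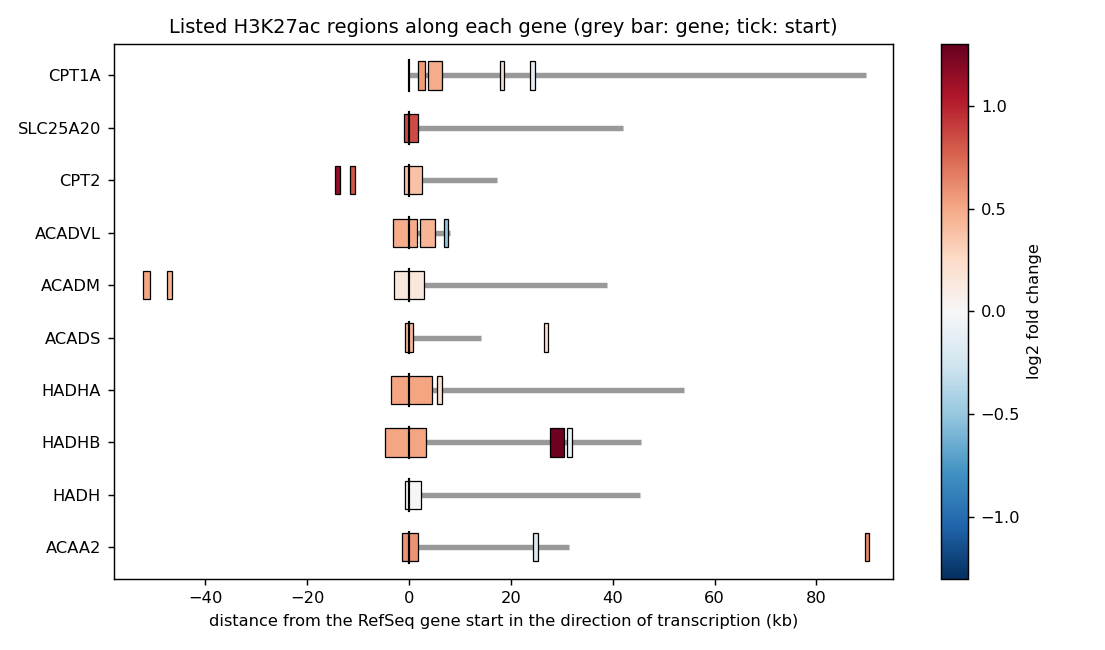
Positions of the listed regions (boxes, drawn at least 0.9 kb wide) along each member gene (grey bar), in kb from the RefSeq gene start in the direction of transcription, coloured by the log2 fold change that the authors' deposited table gives. The start tick of CPT1A has no box on it, and the darkest box is the HADHB region 27629 to 30420 bases past the RefSeq start.

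Among the shuttle genes, CPT1A had 4 regions, none at distance 0, in the authors' deposited table. The table's own distances for them, from -20468 to -41845 bases, are counted from a point 45008 bases inside the gene as RefSeq gives it. Counted from the RefSeq start, the nearest region (chromosome 11, 68841113 to 68842574) began 1703 bases into the gene and the next (68837871 to 68840518) 3759 bases into it, separated by 595 bases. Both are therefore near the 5′ end of the gene rather than remote from it. For CPT1A only the outermost RefSeq start was used here, so overlap of these regions with other starts of the gene was not examined. By the authors' deposited table their log2 fold changes were 0.55 ± 0.31 and 0.49 ± 0.26 (standard errors), with adjusted p of 0.314 and 0.293. They differed by 0.07 (95% interval -0.73 to 0.86), and neither passed. Per kb their levels of 28.7 and 30.0 stood at percentiles 93.0 and 94.5 of tested regions listed away from starts in the authors' deposited table, above the start class median of 25.8. The other CPT1A regions, farther into the gene, had log2 fold changes of -0.14 ± 0.52 and 0.23 ± 0.62 (standard errors) at mean levels of 11.1 and 7.09 in the authors' deposited table.

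SLC25A20, the carnitine and acylcarnitine carrier, had a single region, over its start (chromosome 3, 48897160 to 48899854). Its log2 fold change of 0.85 ± 0.27 (standard error), a ratio of 1.80 with a 95% interval of 1.24 to 2.61, was the highest of the member regions over gene starts in the authors' deposited table. It stood at percentile 97.2 of tested regions at starts, and its adjusted p of 0.0746 in the authors' deposited table did not pass (unadjusted 0.00191). Its mean level was 60.4, or 22.4 per kb, at percentile 31.8 of the start class in the authors' deposited table.

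CPT2 had a start region (chromosome 1, 53195896 to 53199387) at a mean level of 116, or 33.3 per kb, in the authors' deposited table, the highest per kb of the member start regions. Its log2 fold change of 0.38 ± 0.25 (standard error; adjusted p 0.373) was close to the 0.35 median of tested regions over gene starts in the authors' deposited table. A pair of narrow regions 10551 and 13574 bases upstream had larger fold changes with larger errors, 0.81 ± 0.51 and 1.14 ± 0.88 (standard errors), at mean levels of 11.4 and 3.88 in the authors' deposited table. Both intervals included 0, and the RefSeq gene these upstream regions overlap is the noncoding LOC105378724.

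The acyl-CoA dehydrogenases, which take the first step for very long, medium and short chains, had 8 regions, of which 0 were called among 5 tested. ACADVL, for very long chains, had 141 as the mean level of its start region (chromosome 17, 7214041 to 7218734) and 115 for a region 2187 bases into the gene (7219311 to 7222167) in the authors' deposited table. Their log2 fold changes were 0.48 ± 0.24 and 0.44 ± 0.24 (standard errors) in the authors' deposited table, a difference of -0.04 with a 95% interval of -0.71 to 0.62. The adjusted p in the authors' deposited table were 0.255 and 0.309, and the unadjusted p of the start region was 0.0415. The second region contains the other RefSeq start of ACADVL, and its 40.3 per kb was the highest of all 24 regions in the authors' deposited table. Both regions also carry lines for DLG4, a gene on the opposite strand with RefSeq starts in each, so the signal cannot be assigned to either gene alone. The third ACADVL region, 200 bases wide, had -0.50 ± 0.84 (standard error) at a mean level of 4.19 in the authors' deposited table.

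ACADM encodes the medium-chain dehydrogenase, the enzyme of this list whose substrates include octanoyl-CoA. Its start region (chromosome 1, 75721765 to 75727624) was 5859 bases wide, at percentile 83.7 of the start class for width, and had a mean level of 132 in the authors' deposited table. The log2 fold change of 0.15 ± 0.22 (standard error), a ratio of 1.11 with a 95% interval of 0.827 to 1.49, stood at percentile 11.6 of tested regions over gene starts in the authors' deposited table. Its adjusted p of 0.668 did not pass, and the interval leaves room for both no difference and a ratio above the table's median. The regions listed 46650 and 50934 bases upstream had 0.46 ± 0.41 and 0.52 ± 0.40 (standard errors) at mean levels of 19.7 and 18.2 in the authors' deposited table. These lie within SLC44A5 in RefSeq, so their assignment to ACADM rests on the nearest start that the authors used.

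ACADS, the short-chain dehydrogenase, had the narrowest member region at a start (chromosome 12, 120725098 to 120726601), of 1503 bases, with a mean level of 38.5 or 25.6 per kb in the authors' deposited table. Its log2 fold change was 0.43 ± 0.31 (standard error; adjusted p 0.419) in the authors' deposited table. A region 12632 bases past the end of the gene had 0.22 ± 0.97 (standard error) at a mean level of 3.15 in the authors' deposited table.

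**Figure D3:**
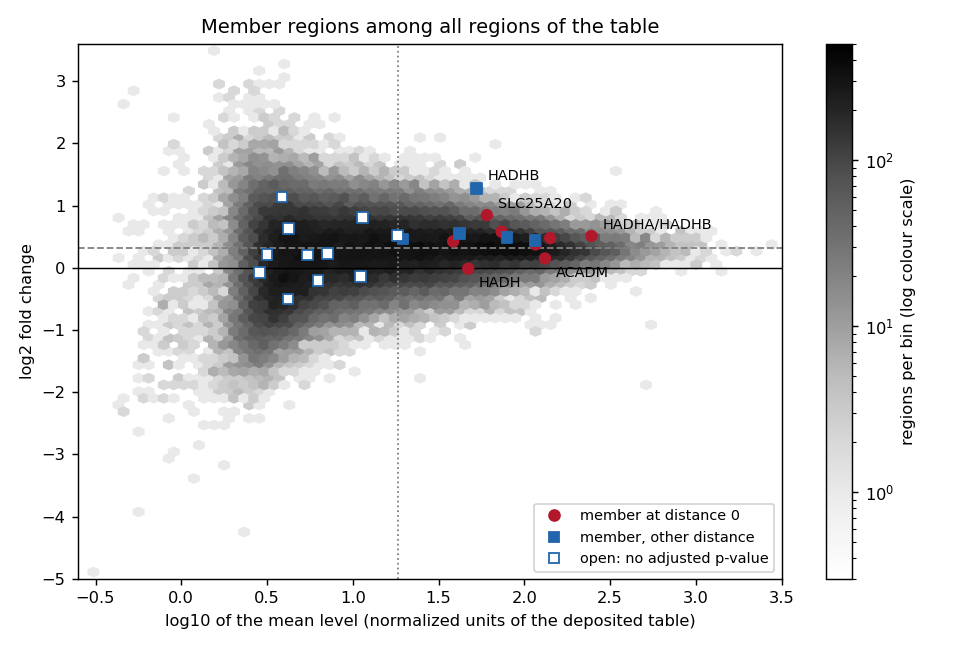
Log2 fold change (vertical axis) against the log10 of the mean level (horizontal axis) for all 91107 regions of the authors' deposited table (grey bins) with the member regions on top. The dotted line marks the level of 18.4 below which no region has an adjusted p, the dashed line the median of 0.32; HADHB stands highest among the tested members and HADH at the level of 0.

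The later steps for shorter chains are catalysed by HADH, the soluble hydroxyacyl-CoA dehydrogenase, and ACAA2, a thiolase. HADH had the lowest fold change of the tested member regions: its single region (chromosome 4, 107989108 to 107992293) had -0.01 ± 0.29 (standard error), a ratio of 0.991 with a 95% interval of 0.666 to 1.48, and an adjusted p of 0.980 in the authors' deposited table. It stood at percentile 1.64 for fold change and 3.46 for level per kb (14.8) among tested regions over gene starts in the authors' deposited table. This region covers the outer of the RefSeq starts of HADH and not the inner one. The ACAA2 start region (chromosome 18, 49811694 to 49814975) had 0.58 ± 0.27 (standard error), an unadjusted p of 0.0296 and an adjusted one of 0.226 at a mean level of 73.7 in the authors' deposited table. It also holds the start of SNHG22, a noncoding gene on the other strand. A further ACAA2 region lay inside the gene, 24961 bases from the start that the authors used. The last lay 90180 bases from that start, 58390 bases past the end of the gene, and overlapped LOC105372112 in RefSeq. These regions had -0.20 ± 0.66 and 0.63 ± 0.85 (standard errors) at mean levels of 6.28 and 4.20 in the authors' deposited table.

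Set side by side by step, the median fold changes (log2) over tested regions of the authors' deposited table were 0.52 for the shuttle (4 regions), 0.44 for the dehydrogenases (5 regions), 0.89 for the trifunctional protein (2 regions) and 0.28 for HADH with ACAA2 (2 regions). The value for the trifunctional protein is the midpoint of 0.51 at the shared start and 1.27 for the called region inside HADHB. The interval of that HADHB region (0.75 to 1.80) lay above those of HADH (-0.59 to 0.56) and the ACADM start (-0.27 to 0.58). Between steps, the intervals of the tested regions otherwise overlapped, and the steps were not tested against each other. By enzyme chain length, the start regions of the long-chain genes ACADVL and HADHA with HADHB had 0.48 and 0.51, and those of the medium- and short-chain genes ACADM, ACADS, HADH and ACAA2 had 0.15, 0.43, -0.01 and 0.58 in the authors' deposited table. The shorter-chain values fall on both sides of the longer-chain ones.

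By position, the 8 member regions at distance 0 had a median log2 fold change of 0.45, from -0.01 to 0.85, beside 0.35 for all 9996 tested regions over gene starts in the authors' deposited table. None was called, where 0.86% of all tested regions at starts were, and 4 of the 8 had a positive fold change with an unadjusted p under 0.05, where 19.2% of all did in the authors' deposited table. Those 4 were SLC25A20, HADHA with HADHB, ACAA2 and ACADVL. The 5 tested regions listed elsewhere had a median of 0.49, from 0.44 to 1.27, beside 0.31 for the 26440 tested regions away from starts in the authors' deposited table. Of these 5, 1 was called, where 1.97% of all tested regions away from starts were. All 8 at starts were tested and 11 of the 16 elsewhere were not, because of their mean levels of 2.86 to 18.2 in the authors' deposited table. Of all regions in the authors' deposited table, 54025 of 80465 elsewhere and 646 of 10642 at starts were likewise not tested. Median width was 3386 bases at member starts and 492 bases elsewhere, beside 3186 and 732 bases for all regions of the same classes.

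**Figure D4:**
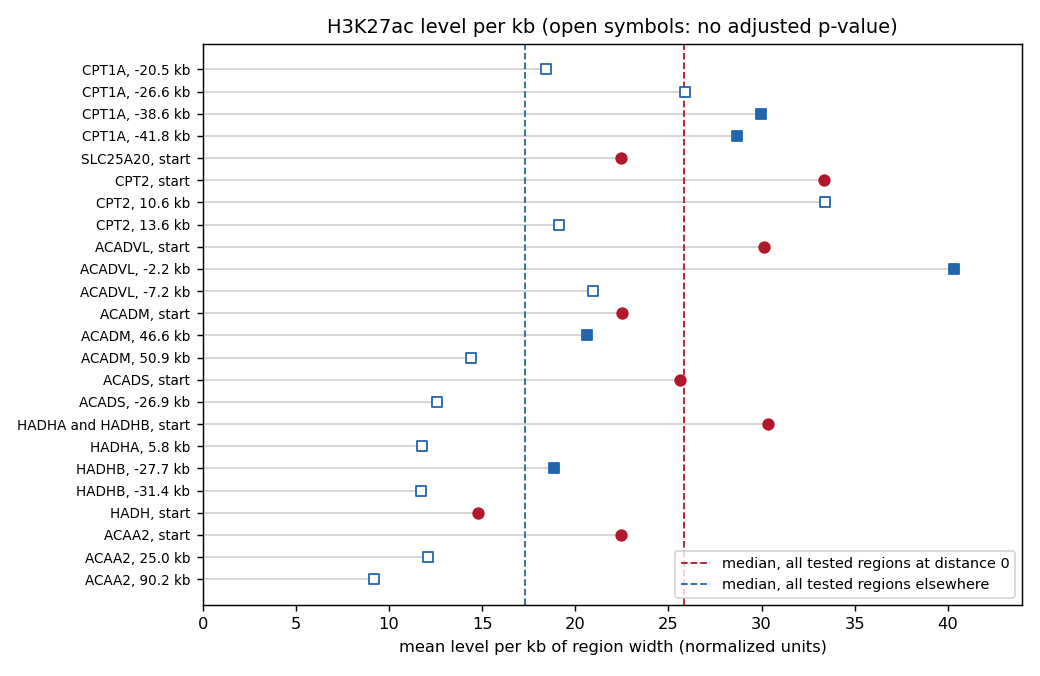
Mean level per kb of region width in the authors' deposited table (horizontal axis, normalized units) for each member region, circles at distance 0 and squares elsewhere, open symbols without an adjusted p. The dashed lines are the medians of all tested regions, 25.8 at distance 0 and 17.3 elsewhere; the ACADVL region inside the gene has the highest value, 40.3, and HADH the lowest of the circles, 14.8.

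Of the member regions at starts, 4 of 8 had a mean level above the median of their class in the authors' deposited table. Per kb, the order at starts in the authors' deposited table was CPT2 (33.3), HADHA with HADHB (30.4), ACADVL (30.1), ACADS (25.6), ACADM (22.5), ACAA2 (22.5), SLC25A20 (22.4) and HADH (14.8). No spread between libraries can be set beside these levels, so neighbours in this order cannot be separated.

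The remaining genes of the pathway were taken from a list of 28: other carnitine enzymes and carriers, medium-chain acyl-CoA synthetases, further acyl-CoA dehydrogenases, the hydratase ECHS1, isomerases, the thiolase ACAT1, the electron carriers ETFA, ETFB and ETFDH, and the malonyl-CoA enzymes ACACB and MLYCD. In all, 25 had a region in the authors' deposited table, with 79 regions of which 40 were tested. None of the 40 was called, where 1.67% of all tested regions of the authors' deposited table were, and 5 had an unadjusted p under 0.05, where 18.4% of all did. Their median over tested regions was 0.36 beside 0.48 for the members and 0.32 for all in the authors' deposited table.

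The authors' deposited table held 18 tested regions of these genes at distance 0, with log2 fold changes between 0.14 and 0.78 (median 0.37). Of these, the regions of ACACB and ACAT1 lay inside the RefSeq gene without covering its outer start. The strand of DECR1 and ETFDH was not available here, and their regions cover the lower-coordinate end of the gene. The highest was MLYCD, which breaks down malonyl-CoA, the inhibitor of CPT1A, with 0.78 ± 0.32 (standard error; adjusted p 0.181) in the authors' deposited table. ETFA, the alpha subunit of the flavoprotein that takes electrons from the acyl-CoA dehydrogenases, had 0.59 ± 0.22 (adjusted p 0.131), and ACADSB, a dehydrogenase for branched short chains, 0.54 ± 0.23 (adjusted p 0.194) in the authors' deposited table. The lowest were ACAD9 with 0.14 ± 0.24, SLC25A29 with 0.22 ± 0.32 and ECHS1 with 0.24 ± 0.26 (standard errors) in the authors' deposited table. ACAD9 is a dehydrogenase that also serves complex I assembly.

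At other distances, the lowest tested regions in the authors' deposited table were 2 remote regions assigned to ECI2, 158885 and 218862 bases upstream of it, with -0.24 ± 0.39 and 0.03 ± 0.26, and a region inside SLC22A5, the plasma membrane carnitine transporter, with -0.06 ± 0.23 (standard errors). The highest were a region 5894 bases upstream of HSD17B10 (0.72 ± 0.51) and regions inside SLC25A29 (0.63 ± 0.39) and ACACB (0.62 ± 0.33, standard errors) in the authors' deposited table. None of these passed.

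**Figure D5:**
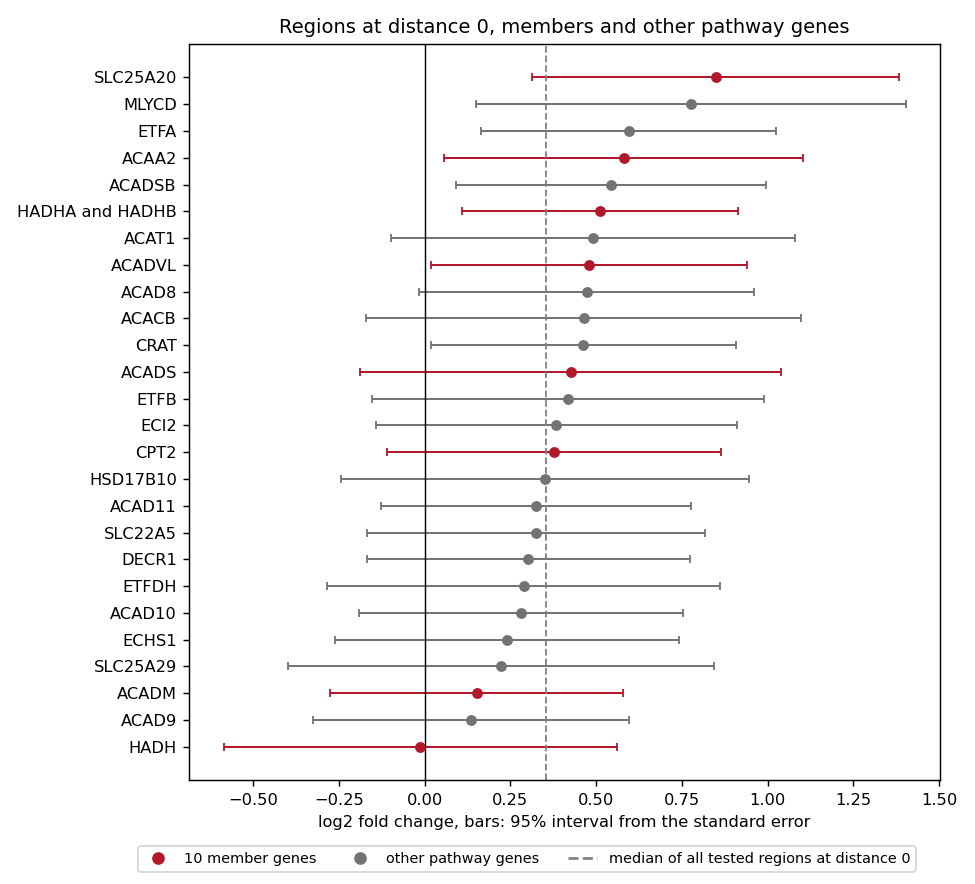
Log2 fold change (horizontal axis, from the authors' deposited table) with 95% intervals from the authors' standard error for the 8 member regions at distance 0 and the 18 tested regions at distance 0 of other pathway genes (rows, ordered by fold change). The dashed line is the median of all tested regions at distance 0, 0.35; members hold both ends of the order, SLC25A20 at 0.85 and HADH at -0.01.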

How the data were processed

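The data were 1 table of the authors' own comparison of 2 vehicle and 2 octanoate libraries. The submitters' processing notes name Trim Galore, cutadapt, FastQC, Bowtie2, Picard, MACS2, featureCounts, DESeq2, bedtools 2.29.1 and the build hg38, with no role or order, and the annotation is not given in the sources used here. Per the file headers, the mean level is a signal normalized by the authors, and the fold change and its standard error are on the log2 scale. The deposited statistic is a score equal to the fold change over its standard error, within 3.38e-14. Adjusting the deposited p-values by Benjamini-Hochberg over regions with an adjusted p-value under 1 returned the authors' adjusted p-values, so the value 1 was read as not computed. Columns of per-sample values left out: 0.

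Lines were merged by region, and a member region was classed by its own line's distance. Coordinates are as deposited. The planned test across libraries could not be run. Level per kb divides the mean level by region width, and intervals are at 95% from the authors' standard error. Centring subtracted the median of 0.32, with normal p-values readjusted. The calculation was tested on simulated data with independent normal errors of the deposited size and a uniform shift. That simulation cannot show how centring behaves with so few libraries per group or with an uneven shift. Python 3.11.15, pandas 2.3.3 and scipy 1.17.1 were used. All members were named, and of the other pathway genes any with a call and the 3 highest and 3 lowest tested regions by position. Members, lists and settings were chosen with earlier results of these data known.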

Additional observations from a re-analysis of the deposited data

How the results depend on the processing

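Of all regions, the authors' deposited table called 608, against 128 with the threshold at 0.01, 319 with fold changes under 1 (log2) left out, 250 adjusted over all distinct regions and 45 after centring. The single member call was kept in these settings and with levels under 10 left out, except after centring, where 0 of the 13 tested member regions passed. For the other pathway genes the count was 0 in each of these settings. The median over member regions in the authors' deposited table was 0.13 after centring, by construction, and ran from 0.44 to 0.47 with each of the 10 genes left out in turn. Since centring subtracts 0.32 from every region, values between 0 and 0.32 turn negative by construction, and 5 of 25 single regions did so: ACADM (-0.17), ACAD9 (-0.19), SLC25A29 (-0.10) and ECHS1 (-0.083) at their starts and 1 ECI2 region (-0.29). HADHB lost its call there, and adjustment over all distinct regions or a threshold of 0.01 changed no call of the 25. Member regions were also classed by any RefSeq start used here in place of the deposited distance, a choice made after the data were seen. This moved 1 region, that of the inner ACADVL start. The medians were then 0.44 over starts and 0.46 elsewhere, beside 0.45 in both classes.

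No paired analysis was possible because values of single libraries were not in the table analysed. Size factors, filters on counts and the leaving out of libraries were not run for that reason.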

Other observations

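Regions in the members' neighbourhood that the authors' deposited table lists under another gene alone were also read, within 5 kb of each gene. There were 2 of them. A region 1505 bases past the end of ACADM was listed under RABGGTB, with a log2 fold change of 0.60 ± 0.40 (standard error; adjusted p = 0.372) in the authors' deposited table. The other, 2541 bases past the end of CPT1A and at distance 0 of MTL5, had 0.64 ± 0.40 (standard error; adjusted p = 0.360) in the authors' deposited table. Neither passed the threshold.

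Among pathway regions without an adjusted p in the authors' deposited table, the start region of ACADL, the long-chain acyl-CoA dehydrogenase, had a log2 fold change of 1.35 ± 0.58 (standard error) with an unadjusted p of 0.0199 at a mean level of 10.4. ACSM3, a medium-chain acyl-CoA synthetase, had 0.73 ± 0.46 (standard error) in a region at distance 0 with a mean level of 14.6 in the authors' deposited table. That region lies inside the RefSeq gene and covers neither of its ends. Both were chosen after their values were seen.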
